A study of Mus musculus with 13 samples.

Results

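The CD300 genes encode a family of immunoglobulin-domain receptors carried mainly by myeloid cells. The 5 members followed here, Cd300a, Cd300lb, Cd300ld, Cd300lf and Cd300lg, were found by mouse symbol among 48709 gene rows of each count table. Cd300ld was chosen because its counts were higher in the AAV-miR SOD1 libraries of these same data, so its values in those comparisons are a description without a test. The other members were chosen by name. The tables hold 12 rows of Cd300 genes in all, and the remaining 7 are given by their counts.

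The 13 RNA-seq libraries were made from motoneurons that were laser-captured from the lumbar spinal cord of SOD1-G93A mice, which carry a mutant human SOD1 transgene and model amyotrophic lateral sclerosis. All mice were 65 days old, and all 3 groups carried the transgene, so no group was wild type. In the AAV-miR SOD1 group (4 libraries) an adeno-associated virus (AAV) injected into the cerebral ventricles on postnatal day 2 made an artificial microRNA against human SOD1 in astrocytes. The AAV-miR ctrl group (5 libraries) received the control vector in the same way, and the non-injected group (4 libraries) consisted of SOD1-G93A littermates. The microRNA was directed to astrocytes and not to the captured motoneurons, and each library held a pool of 500 motoneurons from 1 mouse. The replicate number of each library is the one in its title.

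CD300 receptors sense lipids and other ligands on dying cells and on surrounding tissue and pass the signal on through short cytoplasmic motifs or partner adaptors. Inhibitory members carry their own ITIM motifs, which recruit phosphatases. Activating members pair with ITAM adaptors such as Tyrobp (DAP12) or Fcer1g (the Fc receptor gamma chain), which recruit the kinase Syk. In the nervous system such receptors are known from microglia and from blood-derived myeloid cells.

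In the GRCm38 build with the GENCODE M21 annotation, 4 members lay in a cluster on chromosome 11. Cd300a occupied chr11:114890041-114904654 on the plus strand. Cd300lb (chr11:114922781-114934386), Cd300ld (chr11:114982274-114989922) and Cd300lf (chr11:115116214-115133992) lay on the minus strand. Cd300lg stood apart from this cluster at chr11:102041509-102055620, on the plus strand. Cd300lb and Cd300lf each overlapped a gene on the opposite strand, Gm11699 and Rab37 respectively, without any shared exon base. Cd300ld had 1 annotated transcript of 4 exons.

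Promoter windows of the members are shown because the levels of the clustered members could be compared with what their start sites share. RefSeq (GRCm38.p6) gave a window of 300 bases, from 250 before the start site to 50 after it, for 4 of the 5 members. Each is printed 5′ to 3′ on the strand of its gene, and capitals mark AGGAAGT, the core bound by ETS factors such as the myeloid factor PU.1. Cd300ld3, a neighbouring copy of Cd300ld, is printed for comparison.
Cd300ld: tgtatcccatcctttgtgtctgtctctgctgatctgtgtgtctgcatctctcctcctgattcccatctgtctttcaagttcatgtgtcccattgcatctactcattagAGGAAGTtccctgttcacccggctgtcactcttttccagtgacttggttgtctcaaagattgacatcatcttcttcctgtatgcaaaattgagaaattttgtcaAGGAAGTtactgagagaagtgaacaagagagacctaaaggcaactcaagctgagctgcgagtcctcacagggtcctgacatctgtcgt
Cd300ld3: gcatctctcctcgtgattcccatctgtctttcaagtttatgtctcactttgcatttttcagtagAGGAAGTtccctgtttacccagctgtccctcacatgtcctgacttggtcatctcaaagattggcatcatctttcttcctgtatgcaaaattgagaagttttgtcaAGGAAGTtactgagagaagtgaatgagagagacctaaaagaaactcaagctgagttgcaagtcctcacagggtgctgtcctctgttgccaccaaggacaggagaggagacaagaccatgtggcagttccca
Cd300lf: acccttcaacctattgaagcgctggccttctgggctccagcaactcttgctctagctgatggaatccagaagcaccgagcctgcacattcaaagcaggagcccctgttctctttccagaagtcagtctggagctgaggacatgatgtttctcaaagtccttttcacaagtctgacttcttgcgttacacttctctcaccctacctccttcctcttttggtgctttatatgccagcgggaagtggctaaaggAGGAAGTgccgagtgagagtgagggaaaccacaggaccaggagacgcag
Cd300a: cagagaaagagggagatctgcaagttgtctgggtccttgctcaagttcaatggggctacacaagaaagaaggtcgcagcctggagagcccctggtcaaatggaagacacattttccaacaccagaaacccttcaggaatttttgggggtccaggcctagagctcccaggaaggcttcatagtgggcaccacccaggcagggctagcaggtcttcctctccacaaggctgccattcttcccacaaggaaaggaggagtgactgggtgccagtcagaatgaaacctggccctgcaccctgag
Cd300lb: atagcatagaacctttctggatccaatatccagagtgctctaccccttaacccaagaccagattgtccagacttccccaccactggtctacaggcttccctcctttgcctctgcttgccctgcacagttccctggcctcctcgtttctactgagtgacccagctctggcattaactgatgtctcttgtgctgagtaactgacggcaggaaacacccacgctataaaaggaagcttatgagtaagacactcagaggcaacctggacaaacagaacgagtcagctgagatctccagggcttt

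These windows lie at chr11:114989837-114990136 (Cd300ld), chr11:115048281-115048580 (Cd300ld3), chr11:115133943-115134242 (Cd300lf) and chr11:114934322-114934621 (Cd300lb) on the minus strand, and at chr11:114889791-114890090 (Cd300a) on the plus strand. AGGAAGT, searched on both strands, occurred in 9.35% of 32851 RefSeq windows of the same length. The Cd300ld window held 2 copies, beginning 142 and 38 bases before the start site. The Cd300ld3 window also held 2, at 186 and 81 bases before its own start site, and was 87.5% identical to that of Cd300ld over 257 aligned positions. The Cd300lf window held 1 copy, which began 1 base after the start site. In the windows of Cd300a and Cd300lb these letters were not found.

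The longer form GAGGAAGT, which contains the core, was present in 3.20% of all windows and had 1 match in each of Cd300ld, Cd300ld3 and Cd300lf. The C/EBP-type pattern TTGCNNAA, present in 10.8% of windows, had 1 match in Cd300a. TATAAA was present in 13.6% of windows and had 1 match in Cd300lb, on the printed strand, and 1 in Cd300lf, on the opposite strand. These patterns too were searched on both strands. The AP-1-type pattern TGANTCA, present in 7.81% of windows, had no match in these 5 windows. The patterns were chosen with the promoter sequences in view, and a match describes letters in a window, not a bound site.

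Sequence that genes share sets how far their counts can be separated. Of all windows of 50 bases along the Cd300ld transcript, 3.89% also occurred in another gene, mostly in Cd300lf and the Cd300ld copies. The share was 3.45% for Cd300a, 2.44% for Cd300lf and 0.141% for Cd300lg, and Cd300lb had none. In contrast it was 31.0% for Cd300ld2, 82.1% for Cd300ld3, 93.8% for Cd300ld4 and the whole transcript for Cd300ld5, as the plot of shared sequence shows. Counts of these 4 copies are therefore uncertain, least so for Cd300ld2, and their reads may have been left out of the tables as aligning to several places.

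**Figure D1:**
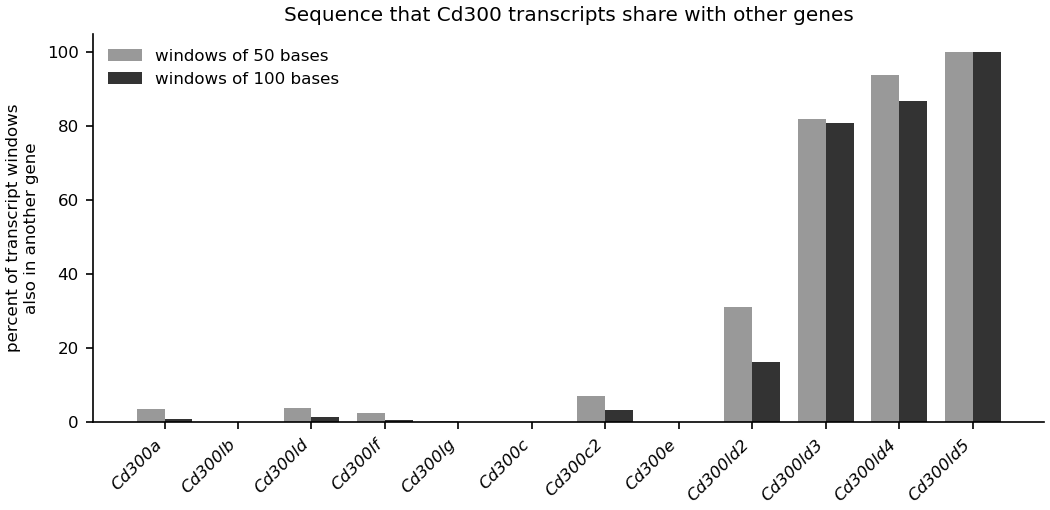
Bars give the percent of transcript windows of 50 bases (light) and 100 bases (dark) of each Cd300 gene that also occur in a transcript of another gene. The 5 members stay under 4 percent, while Cd300ld3, Cd300ld4 and Cd300ld5 share over 80 percent of their windows.

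Depth ran from 13.9 to 37.4 megacounts assigned to genes per library, and the deepest libraries all belonged to the control groups. Reads aligning to several places made up 51.1% to 56.8% in AAV-miR SOD1, 44.6% to 53.8% in AAV-miR ctrl and 42.3% to 52.8% in non-injected. This share was lowest in the libraries numbered 5 or 6, which are controls only. Levels are given in CPM, counts per megacount of the library after TMM scaling, in which 3 counts correspond to 0.0749 to 0.225 CPM. In 2 of the 13 tables, both of libraries numbered 3 (1 labelled AAV-miR ctrl and 1 labelled non-injected), the column header went against the label, and the label was used. Mouse Sod1, which is not the target of the microRNA, was measured at 168 to 472 CPM over the 13 libraries and does not check the labels. Defining motoneuron markers were present in every library, at a summed level of 1376 to 5269 CPM.

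Cd300ld, an activating receptor of myeloid cells that signals through Fcer1g, was the member with the widest separation between groups. In the AAV-miR SOD1 libraries it was measured at 17.6, 15.2, 10.9 and 15.9 CPM (replicates 1, 2, 3 and 4), from 396, 317, 231 and 252 counts. In the AAV-miR ctrl libraries it was measured at 8.40, 3.28, 4.87, 4.94 and 5.89 CPM (replicates 1, 3, 4, 5 and 6). In the non-injected libraries it was measured at 6.00, 3.82, 4.54 and 7.16 CPM (replicates 2, 3, 5 and 6). Every AAV-miR SOD1 library lay above every control library, and AAV-miR SOD1 replicate 3 and AAV-miR ctrl replicate 1 came closest to each other. These are the values the gene was chosen for.

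The mean level of Cd300ld was 14.9 ± 2.84 CPM (SD, n = 4) in AAV-miR SOD1, 5.48 ± 1.88 CPM (SD, n = 5) in AAV-miR ctrl and 5.38 ± 1.49 CPM (SD, n = 4) in the non-injected group. As a description, the fitted log2 difference was 1.45 ± 0.29 (SE) from AAV-miR ctrl and 1.47 ± 0.31 (SE) from the non-injected group. Both comparisons rest on the same 4 AAV-miR SOD1 libraries. Of all 17403 genes tested, 1.27% lay above AAV-miR ctrl without overlap, 5.9% above non-injected and 0.592% above both, and nothing is read from this for Cd300ld, which was picked on this contrast.

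**Figure D2:**
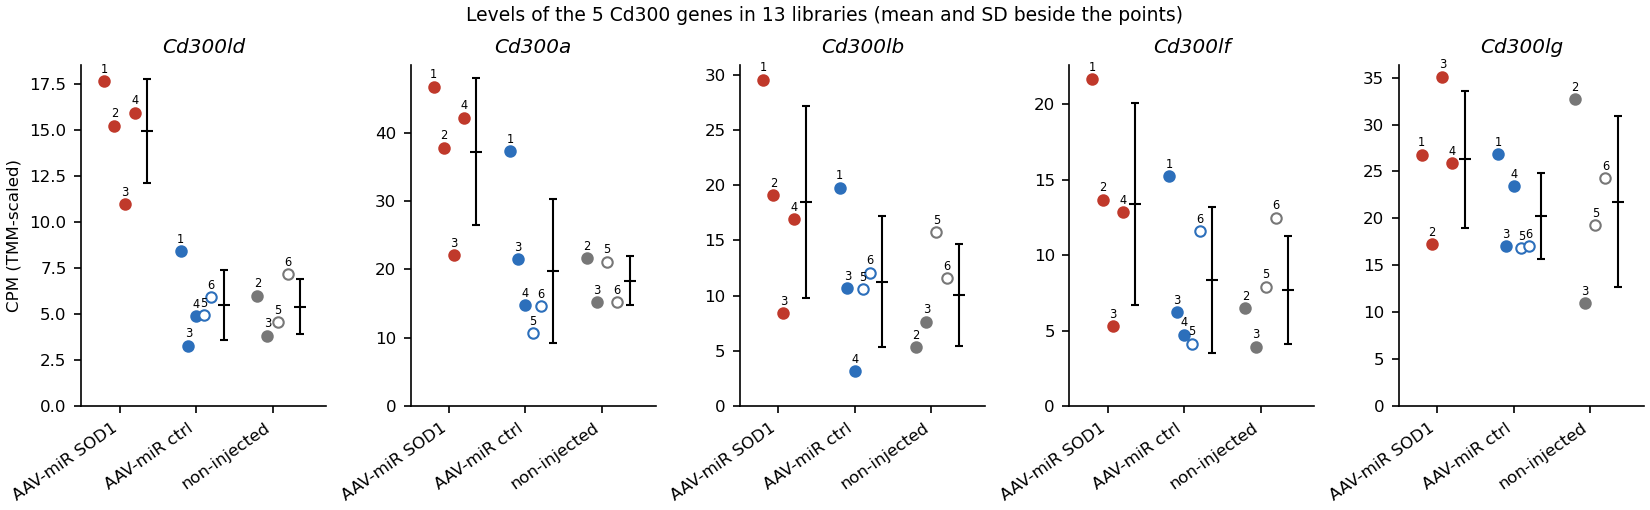
Each panel plots 1 member in CPM (TMM-scaled, axis from 0) for every library, numbered by replicate, with the mean and SD beside the points; open points are the libraries numbered 5 or 6, which are controls only. For Cd300ld the AAV-miR SOD1 libraries (10.9 to 17.6 CPM) all lie above the controls (3.28 to 8.40 CPM), whereas the groups overlap in the other panels except for Cd300a against the non-injected libraries.

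The comparison of the control groups did not enter the choice of Cd300ld and could be tested. The log2 difference of Cd300ld between AAV-miR ctrl and non-injected was 0.03 ± 0.29 (SE), with a 95% confidence interval of -0.60 to 0.65 and an adjusted p of 1 (edgeR quasi-likelihood test, Benjamini-Hochberg over all genes). Its direction turned under other settings.

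Cd300a, an inhibitory ITIM receptor that binds phosphatidylserine and phosphatidylethanolamine, showed the next largest difference. It was measured at 46.7, 37.8, 22.1 and 42.2 CPM in AAV-miR SOD1 replicates 1 to 4. In AAV-miR ctrl it was measured at 37.3, 21.5, 14.8, 10.6 and 14.6 CPM (replicates 1, 3, 4, 5 and 6). In the non-injected group it was measured at 21.7, 15.2, 21.1 and 15.2 CPM (replicates 2, 3, 5 and 6). AAV-miR ctrl replicate 1 reached the level of the AAV-miR SOD1 libraries, and AAV-miR SOD1 replicate 3 lay only just above the highest non-injected library.

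The log2 difference of Cd300a from AAV-miR ctrl was 0.91 ± 0.33 (SE; 95% confidence interval 0.20 to 1.63), and edgeR gave an adjusted p of 0.277. From the non-injected group it was 1.02 ± 0.36 (SE, interval 0.26 to 1.79), with an adjusted p of 0.15 by edgeR. These groups did not overlap, and 5.9% of all genes lay above non-injected in this way. From both control groups together the log2 difference of Cd300a was 0.97 ± 0.29 (SE, interval 0.35 to 1.59), with an unadjusted p of 0.00487 and an adjusted p of 0.103 by edgeR. Cd300a thus did not pass the threshold of 0.05 in any of these comparisons. In the comparison with both control groups it did pass with DESeq2 (adjusted p 0.0301), with limma-voom using sample quality weights (adjusted p 0.0316), and with edgeR when AAV-miR ctrl replicate 1 was left out (adjusted p 0.0208). In these settings 1521 of 17403, 1461 of 17403 and 1694 of 17217 genes passed, in the same order. Over the other settings tried with edgeR for this comparison, the adjusted p of Cd300a ran from 0.0726 to 0.453.

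Cd300lf, which carries ITIM motifs and is also the mouse norovirus receptor, varied widely within each group. It was measured at 21.7, 13.7, 5.31 and 12.8 CPM in AAV-miR SOD1 replicates 1 to 4. The AAV-miR ctrl libraries ran from 4.13 to 15.2 CPM with a median of 6.22 CPM, and the non-injected libraries from 3.93 to 12.5 CPM with a median of 7.21 CPM. The groups overlapped in both comparisons, and AAV-miR SOD1 replicate 3 lay below the median of each control group. The log2 difference was 0.67 ± 0.47 (SE; 95% interval -0.33 to 1.67) from AAV-miR ctrl and 0.79 ± 0.50 (SE; interval -0.27 to 1.85) from the non-injected group, with adjusted p-values of 0.522 and 0.383 by edgeR.

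Cd300lb, an activating receptor that signals through Tyrobp, was also spread widely within each group. It was measured at 29.6, 19.1, 8.43 and 16.9 CPM in AAV-miR SOD1 replicates 1 to 4. The AAV-miR ctrl libraries ran from 3.15 to 19.8 CPM with a median of 10.6 CPM, and the non-injected libraries from 5.30 to 15.8 CPM with a median of 9.61 CPM. Replicate 1 was the highest library of Cd300lb in both vector groups, and the groups overlapped. The log2 difference was 0.71 ± 0.46 (SE; 95% interval -0.27 to 1.70) from AAV-miR ctrl and 0.87 ± 0.49 (SE; interval -0.18 to 1.92) from the non-injected group, with adjusted p-values of 0.486 and 0.325 by edgeR.

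Cd300lg (nepmucin), the member known from the endothelium of small vessels, differed least between groups. It was measured at 26.8, 17.3, 35.1 and 25.9 CPM in AAV-miR SOD1 replicates 1 to 4. The AAV-miR ctrl libraries ran from 16.9 to 26.8 CPM with a median of 17.1 CPM, and the non-injected libraries from 10.9 to 32.7 CPM with a median of 21.8 CPM. AAV-miR SOD1 replicate 3, the lowest of its group for the other 4 members, was the highest for Cd300lg. The log2 difference was 0.38 ± 0.30 (SE; 95% interval -0.26 to 1.01) from AAV-miR ctrl and 0.27 ± 0.31 (SE; interval -0.40 to 0.94) from the non-injected group, with adjusted p-values of 0.579 and 0.665 by edgeR.

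Against the background, 0 of the 4 members other than Cd300ld passed an adjusted p of 0.05 in any comparison, and so did 0% of all 17403 genes. At an unadjusted p under 0.05, 1 of these 4, Cd300a, had the higher level in AAV-miR SOD1 when set against AAV-miR ctrl, where 5.99% of all genes were. Cd300a was also the 1 member of the 4 higher than in non-injected, where 9.36% of all genes were, and than in both control groups, where 10.2% were. Between AAV-miR ctrl and non-injected, 0 of the 5 members had an unadjusted p under 0.05, against 3.61% of all genes in either direction. The median log2 difference of all genes lay between -0.09 and -0.01 in these comparisons, as the plot of fold changes can be read against. When each library was left out in turn, the share of all genes higher at an unadjusted p under 0.05 ran from 2.28% to 11.6% against AAV-miR ctrl and from 5.5% to 12.3% against non-injected. The lowest shares came without AAV-miR SOD1 replicate 1, and the 11.6% came without AAV-miR ctrl replicate 1. Within the libraries numbered 1 to 4 alone, the shares were 2.45% and 8.03%.

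**Figure D3:**
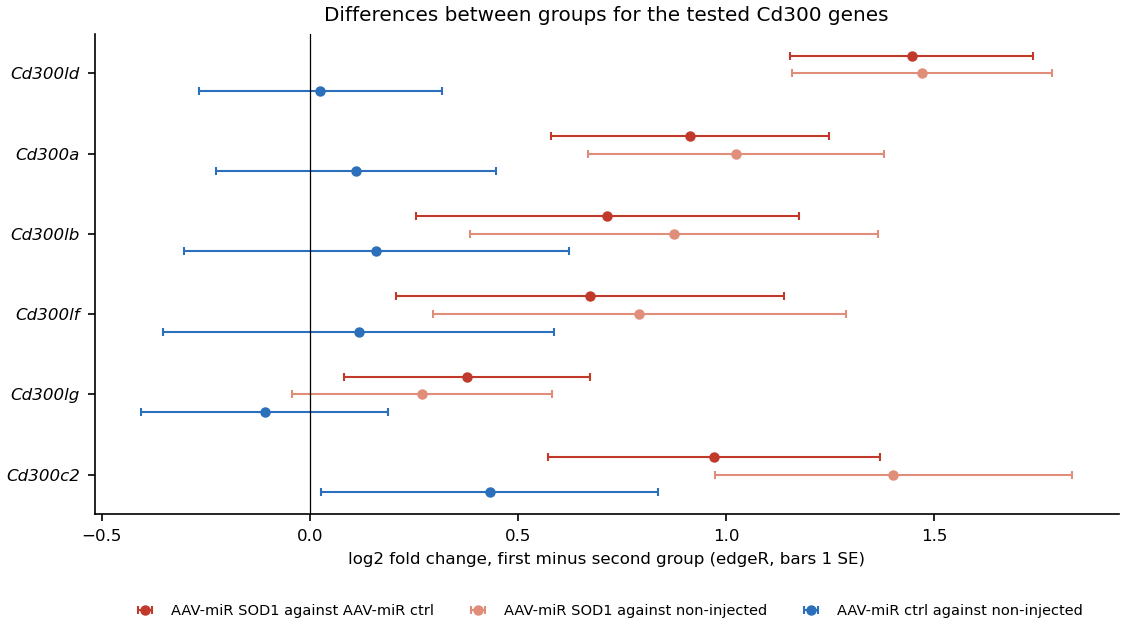
Points give edgeR's log2 fold change, first minus second group, of the 5 members and Cd300c2, with bars of 1 SE; the line at 0 marks equal levels. Both AAV-miR SOD1 comparisons (which share those libraries) lie between 0.27 and 1.47 for the members, and the comparison of the control groups between -0.11 and 0.16; the Cd300ld values in the AAV-miR SOD1 comparisons chose the gene and carry no test.

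Among the other Cd300 rows, Cd300c2 was measured at 7.77 to 15.9 CPM in AAV-miR SOD1, 2.84 to 12.8 CPM in AAV-miR ctrl and 3.42 to 6.23 CPM in the non-injected group. Its log2 difference was 0.97 ± 0.40 (SE) from AAV-miR ctrl (adjusted p 0.304 by edgeR). From the non-injected group the difference was 1.40 ± 0.43 (SE), with an adjusted p of 0.14 by edgeR. These groups did not overlap, and 5.9% of all genes lay above non-injected in this way. Of the 50-base windows of Cd300c2, 7.16% also occurred in another gene, Cd300a.

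Cd300e, a receptor of monocytes, was counted 16, 14, 10 and 26 times in AAV-miR SOD1 replicates 1 to 4. In AAV-miR ctrl it had 30 counts in replicate 1, 4 in replicate 5 and 0 in the other libraries, and in the non-injected group it had 1 count in replicate 6 and 0 elsewhere. AAV-miR ctrl replicate 1 thus held the most raw Cd300e counts. In CPM, AAV-miR SOD1 replicate 4 was higher, at 1.64 CPM against 1.33 CPM in AAV-miR ctrl replicate 1. Cd300c had 25 to 32 counts in AAV-miR SOD1, 6 to 53 in AAV-miR ctrl and 1 to 23 in the non-injected group. Cd300ld3 had 0 to 2 counts, and Cd300ld2, Cd300ld4 and Cd300ld5 had 0 in every library. For Cd300ld4 and Cd300ld5 this says nothing of their expression, given the sequence they share. For Cd300ld2, 31.0% of the 50-base windows also occurred in another gene, so most of its transcript could be counted, and it was not detected.

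Per kilobase of exon, the mean levels of the members stood in 1 order in all 3 groups: Cd300lg, Cd300a, Cd300lb, Cd300ld, Cd300lf, from high to low. In AAV-miR SOD1 these means were 9.60, 7.86, 6.35, 5.64 and 2.60 CPM per kb, and in AAV-miR ctrl 7.39, 4.17, 3.86, 2.07 and 1.63 CPM per kb. In the non-injected group they were 7.96, 3.86, 3.45, 2.03 and 1.50 CPM per kb. The ranges of neighbours in this order overlapped in every group. Cd300ld nevertheless lay above Cd300lf in 4 of 4 AAV-miR SOD1, 4 of 5 AAV-miR ctrl and 4 of 4 non-injected libraries. The order depends on the exon lengths used, 2.645 kb for Cd300ld and 5.149 kb, merged over 7 transcripts, for Cd300lf. In CPM, without length, the ratio of Cd300ld to Cd300lf was 0.813 to 2.06 in AAV-miR SOD1. In the controls that ratio was 0.509 to 1.20, with a median of 0.574.

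The make-up of the family was compared within libraries. Cd300ld made up 16.4%, 19.7%, 16.2% and 18.4% of the summed CPM per kb of the 5 members in AAV-miR SOD1 replicates 1 to 4, and 7.34% to 12.8% in the 9 control libraries. The groups did not overlap in this share, which rests on the values that chose Cd300ld. Cd300lg accounted for 21.6% to 50.2% in AAV-miR SOD1 and 32.0% to 55.1% in the control libraries. Among the 4 clustered members alone, the Cd300ld share was 21.6% to 32.5% in AAV-miR SOD1 and 11.6% to 26.5% in the controls, and the ranges overlapped. The ratio of Cd300ld to Cd300a, from 0.377 to 0.496 in AAV-miR SOD1 and from 0.152 to 0.471 in the controls, also overlapped.

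**Figure D4:**
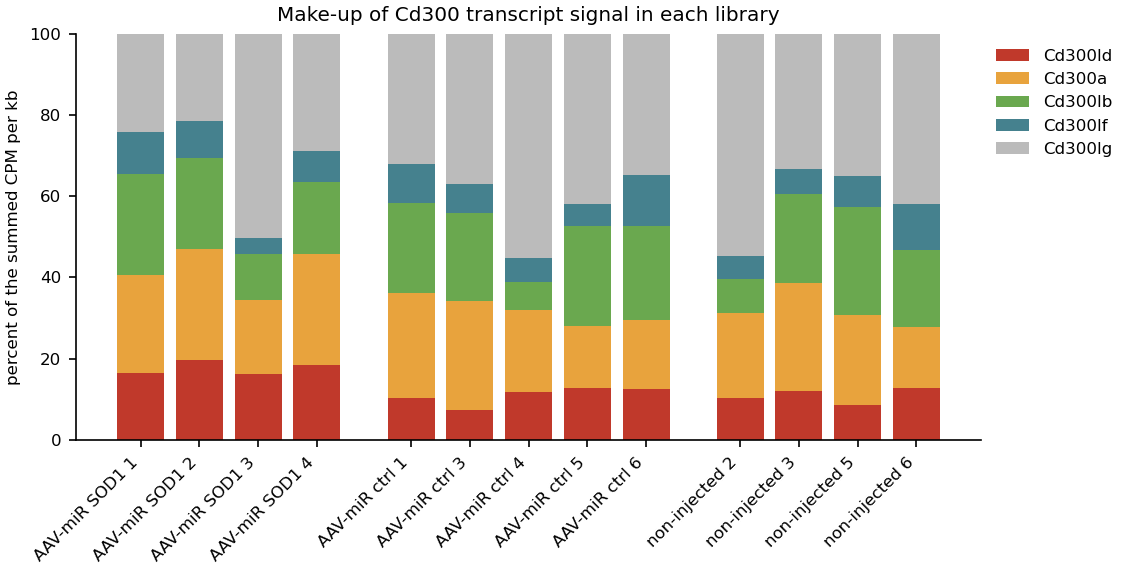
Stacked bars give each member's percent of the summed CPM per kb of the 5 members in every library, in the order of the groups. The Cd300ld segment is 16.2 to 19.7 percent in AAV-miR SOD1 and 7.34 to 12.8 percent in the control libraries, and Cd300lg is the widest segment in all 9 controls.

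Activating CD300 receptors signal through ITAM adaptors. Tyrobp was measured at 340 to 576 CPM in AAV-miR SOD1, 160 to 543 CPM in AAV-miR ctrl and 139 to 270 CPM in the non-injected group. Fcer1g, the partner of Cd300ld, was measured at 241 to 462, 114 to 384 and 127 to 192 CPM in the same order. Hcst (DAP10), listed beside these ITAM adaptors as an adaptor partner, ran from 7.68 to 69.1 CPM over the 13 libraries. All 3 adaptors listed, Tyrobp, Fcer1g and Hcst, were higher in AAV-miR SOD1 at an unadjusted p under 0.05 against each control group. Of all genes, 5.99% were so against AAV-miR ctrl and 9.36% against non-injected. After adjustment, 0 of the 3 adaptors passed. Their log2 differences from both control groups were 1.00 ± 0.30, 1.01 ± 0.28 and 1.36 ± 0.38 (SE). Against AAV-miR ctrl, 0 of the 3 had such a p within the libraries numbered 1 to 4 alone, or when AAV-miR SOD1 replicate 1 or AAV-miR ctrl replicate 4, 5 or 6 was left out. In those settings 2.28% to 4.12% of all genes were higher at that p. Against non-injected, all 3 had it whichever single library was left out, beside 5.5% to 12.3% of all genes.

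Relative to its adaptor, Cd300ld overlapped between groups. There were 38.1 to 47.0 Cd300ld counts per 1000 Fcer1g counts in AAV-miR SOD1, 18.3 to 43.4 in AAV-miR ctrl and 29.0 to 55.1 in the non-injected group. Cd300a, set against Fcer1g in the same way, stood at 91.5 to 125, 88.8 to 121 and 113 to 135 per 1000. The highest ratio of Cd300ld was found in non-injected replicate 6, and the lowest in AAV-miR ctrl replicate 3, one of the tables whose header contradicts its label.

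Of the phosphatases that ITIM receptors recruit, Ptpn6 (SHP-1) and Inpp5d (SHIP-1) had an unadjusted p under 0.05 against each control group, and Ptpn11 (SHP-2), which most cell types express, did not. Their log2 differences from both control groups were 0.92 ± 0.30, 1.02 ± 0.31 and 0.11 ± 0.29 (SE), and 0 of 3 passed after adjustment by edgeR. At an unadjusted p under 0.05, 5.99% of all genes were higher against AAV-miR ctrl and 9.36% against non-injected. Ptpn6 was measured at 62.3 to 138 CPM in AAV-miR SOD1 and 28.8 to 108 CPM in the controls. Against AAV-miR ctrl, the count of 2 was 0 inside the libraries numbered 1 to 4 alone and without any 1 of AAV-miR SOD1 replicate 1 and AAV-miR ctrl replicates 4, 5 and 6. In those settings 2.28% to 4.12% of all genes were higher at that p. Against non-injected the count was 1 without non-injected replicate 3, beside 6.26% of all genes.

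Of 10 kinases and effectors downstream of ITAM adaptors, 1 was higher at an unadjusted p under 0.05 against AAV-miR ctrl and 8 against non-injected, and 0 passed after adjustment. Of all genes, 5.99% and 9.36% were higher at that p in the same order. The median log2 difference of this list was 0.66 and 1.05, beside -0.04 and -0.09 for all genes tested. Syk, the kinase that binds ITAMs, was measured at 42.8 to 97.7 CPM in AAV-miR SOD1 and 28.9 to 71.5 CPM in the controls. Lyn, a Src family kinase, was measured at 59.9 to 124 CPM and 25.7 to 114 CPM. The count against AAV-miR ctrl was 8 without AAV-miR ctrl replicate 1, where 11.6% of all genes were higher at that p. It was 4 without AAV-miR SOD1 replicate 3, where 9.26% of all genes were. It was 0 without AAV-miR SOD1 replicate 1 (2.28% of all genes) or any other AAV-miR ctrl library (4.01% to 5.55%). Within the libraries numbered 1 to 4 alone it was also 0 (2.45% of all genes). The count against non-injected was 2 without AAV-miR SOD1 replicate 1 (5.5% of all genes) or non-injected replicate 3 (6.26%). It was 4 without non-injected replicate 6 (6.78% of all genes).

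Other myeloid receptors were compared in the same way. Of 12 other activating receptors, 3 were higher at an unadjusted p under 0.05 against AAV-miR ctrl and 10 against non-injected, and their median log2 difference was 0.81 and 1.21. Of 8 other inhibitory receptors, 0 and 7 were higher at that p, with medians of 0.66 and 0.97, and 0 of either list passed after adjustment. The share of all genes higher at that p was 5.99% and 9.36%. Trem3 was measured at 62.8 to 160 CPM in AAV-miR SOD1 and 24.5 to 141 CPM in the controls. Clec12a, an inhibitory lectin receptor, was measured at 130 to 296 CPM and 61.2 to 311 CPM. Without AAV-miR ctrl replicate 1, 8 of the 12 and 8 of the 8 had such a p against AAV-miR ctrl, where 11.6% of all genes did. Without AAV-miR SOD1 replicate 3, 8 and 4 did, where 9.26% of all genes did. Within the libraries numbered 1 to 4 alone 1 and 0 did, where 2.45% of all genes did. Against non-injected, the lowest counts with 1 library left out were 4 of the 12, without non-injected replicate 3, and 2 of the 8, without AAV-miR SOD1 replicate 1. Of all genes, 6.26% and 5.5% were higher at that p in these settings.

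Markers of blood and marrow cells were abundant in these captures. The summed level of 14 neutrophil genes was 30398 to 81673 CPM in AAV-miR SOD1, 11412 to 70064 CPM in AAV-miR ctrl and 15263 to 24796 CPM in the non-injected group. S100a9, a calcium-binding protein of neutrophils, alone reached 9767 to 25705 CPM in AAV-miR SOD1 and 2330 to 24784 CPM in the controls. The summed level of 12 monocyte and macrophage genes, led by Lyz2 (lysozyme), was 4762 to 12336, 2181 to 8454 and 2733 to 3896 CPM in the same order of groups. Most of this sum came from Lyz2 and Chil3, with means of 4617 and 1292 CPM in AAV-miR SOD1, where the mean sum was 7533 CPM. At an unadjusted p under 0.05, 5.99% of all genes were higher against AAV-miR ctrl and 9.36% against non-injected. In the same order, 4 and 8 of the 14 neutrophil genes were higher at that p. So were 5 and 7 of the 12 monocyte and macrophage genes. Within the libraries numbered 1 to 4 alone these counts were 0 and 3, and 0 and 4. Without AAV-miR SOD1 replicate 1 they were 0 and 2, and 2 and 4. Without AAV-miR ctrl replicate 1 they were 13 and 12, and 8 and 7. Without AAV-miR SOD1 replicate 3 they were 7 and 11, and 7 and 8. In these settings, in order, 2.45%, 2.28%, 11.6% and 9.26% of all genes were higher against AAV-miR ctrl. Against non-injected, 8.03%, 5.5%, 10.6% and 11.7% were. The monocyte and macrophage count against AAV-miR ctrl was 1 without AAV-miR ctrl replicate 3, 5 or 6, beside 5.55%, 4.02% and 4.12% of all genes. That against non-injected was 4 without non-injected replicate 3 or 6, beside 6.26% and 6.78% of all genes. AAV-miR ctrl replicate 1 was the control library with the highest neutrophil sum, and it was also the control library with the highest Cd300ld and Cd300a. In the non-injected group, in contrast, replicate 6 had the lowest neutrophil sum (15263 CPM) and the highest Cd300ld (7.16 CPM). Replicate 2 of that group had both the highest neutrophil sum (24796 CPM) and the highest Cd300a (21.7 CPM). No gene of these lists was at 0 in all libraries of a group.

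Markers of microglia, the resident myeloid cells of the cord, were measured next. The summed level of 13 microglia genes was 578 to 735 CPM in AAV-miR SOD1, 366 to 937 CPM in AAV-miR ctrl and 197 to 698 CPM in the non-injected group. At an unadjusted p under 0.05, 1 and 3 of the 13 were higher against AAV-miR ctrl and non-injected, where 5.99% and 9.36% of all genes were. The median log2 differences of the 13 were 0.27 and 0.54. The first count was 3 without AAV-miR ctrl replicate 1, beside 11.6% of all genes. The second ran from 1 to 5 with 1 library left out. It was lowest without AAV-miR SOD1 replicate 2 (7% of all genes) or non-injected replicate 3 (6.26%) and highest without non-injected replicate 5 (10.2%). Csf1r, the receptor that sustains microglia and macrophages, was measured at 117 to 175 CPM in AAV-miR SOD1 and 32.4 to 270 CPM in the controls.

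Erythroid and motoneuron markers were counted in the same way. All 7 erythroid genes found were higher at an unadjusted p under 0.05 against AAV-miR ctrl and non-injected, where 5.99% and 9.36% of all genes were. The summed level of the 7 was 19011 to 43258 CPM in AAV-miR SOD1 and 3132 to 25114 CPM in the controls. Against AAV-miR ctrl, 3 of the 7 erythroid genes were higher at that p without AAV-miR SOD1 replicate 1, beside 2.28% of all genes. Within the libraries numbered 1 to 4 alone 3 were, beside 2.45% of all genes. Of 7 motoneuron genes, 5 and 7 were lower at that p against AAV-miR ctrl and non-injected, where 8.54% and 11.5% of all genes were. The count of 5 was 2 without AAV-miR ctrl replicate 5 or 6 and 0 within the libraries numbered 1 to 4 alone. In these settings, in order, 5.28%, 5.1% and 2.43% of all genes were lower at that p. Nefh, a neurofilament chain, was measured at 852 to 1473 CPM in AAV-miR SOD1 and 1247 to 2950 CPM in the controls. Endothelial markers, with which Cd300lg is read, had 0 of 8 genes at an unadjusted p under 0.05, and their sum was 147 to 244 CPM in AAV-miR SOD1 and 102 to 232 CPM in the controls. Non-injected replicate 3 had both the lowest endothelial sum and the lowest Cd300lg of the 13 libraries.

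**Figure D5:**
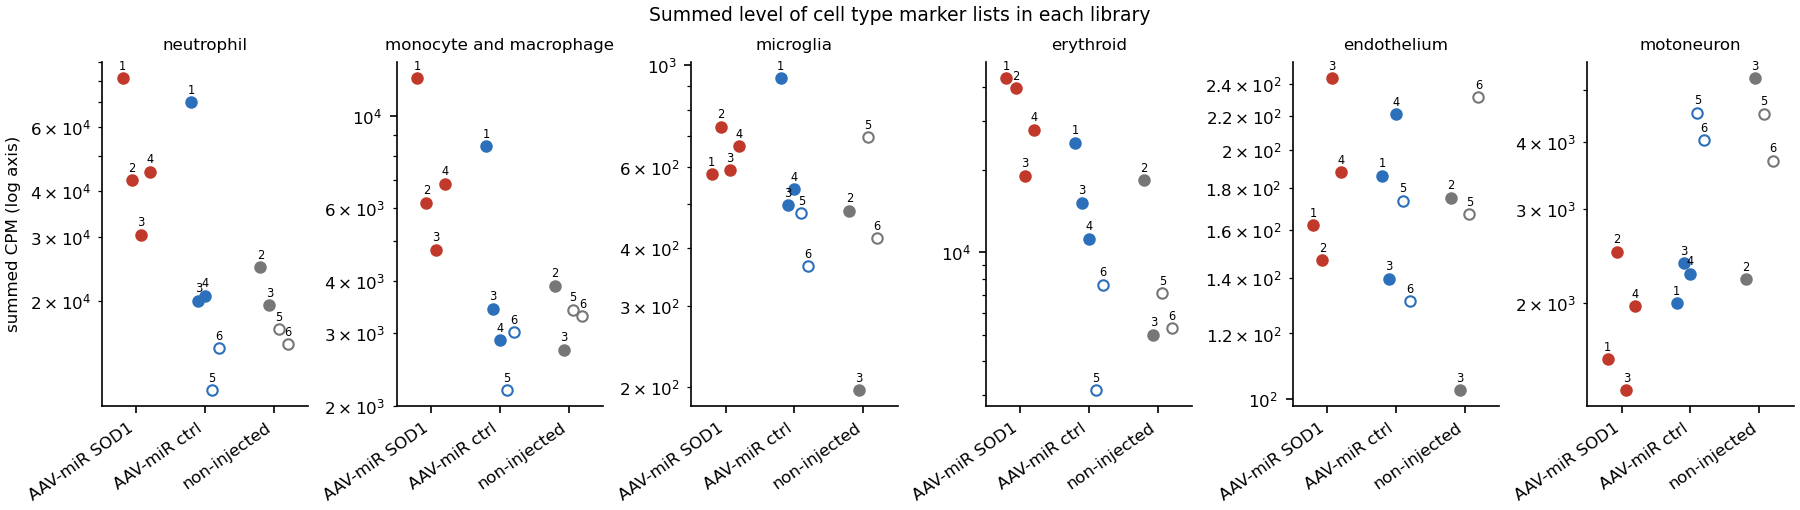
Points give the summed CPM (log axis) of 6 marker lists in every library, numbered by replicate, with open points for the libraries numbered 5 or 6. The neutrophil, monocyte and macrophage and erythroid sums are highest in AAV-miR SOD1 replicate 1, AAV-miR ctrl replicate 1 lies far above the other AAV-miR ctrl libraries in the first 2, and the endothelial sums overlap between all groups.

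Set against the neutrophil and the monocyte and macrophage sums, Cd300ld overlapped between groups. There were 2.16 to 3.60 CPM of Cd300ld per 10000 CPM of the neutrophil list in AAV-miR SOD1 and 1.20 to 4.69 in the 9 control libraries. Per 10000 CPM of the monocyte and macrophage list there were 14.3 to 24.6 and 9.55 to 22.7 CPM of Cd300ld. Per 10000 CPM of the microglia list there were 185 to 305 CPM in AAV-miR SOD1, 66.1 to 161 CPM in AAV-miR ctrl and 65.1 to 194 CPM in the non-injected group. By this measure AAV-miR SOD1 lay above every library labelled AAV-miR ctrl, and it overlapped the non-injected group through replicate 3 alone. The header of that library contradicts its label, and with the headers exchanged the overlap would be with AAV-miR ctrl instead. These ratios rest on the Cd300ld values that chose the gene, and nothing is read from their separation. The part of these cell types in the Cd300ld values was not tested, and in such bulk captures more cells of a type and more RNA per cell cannot be told apart.

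Among the remaining marker lists, of 7 mast cell, basophil and eosinophil genes, 0 were higher at an unadjusted p under 0.05 against AAV-miR ctrl and 1 against non-injected, where 1 was lower. Their sum was 29.0 to 183 CPM in AAV-miR SOD1, 22.9 to 109 CPM in AAV-miR ctrl and 38.7 to 518 CPM in the non-injected group, highest in replicate 5. The higher gene was Mcpt8, a basophil protease, at 13.7 to 115 CPM in AAV-miR SOD1 and 7.84 to 53.6 CPM in the controls, and the lower one was Epx, eosinophil peroxidase, with means of 4.42 CPM in AAV-miR SOD1 and 45.6 CPM in the non-injected group. The lower count was 0 without non-injected replicate 5, among others. At an unadjusted p under 0.05, 5.99% and 9.36% of all genes were higher against AAV-miR ctrl and non-injected, and 8.54% and 11.5% lower. Of 5 dendritic cell genes tested, 1 and 0 were higher and 1 and 1 lower, and Flt3 was measured at 16.9 to 37.2 CPM in AAV-miR SOD1 and 27.1 to 90.4 CPM in the controls. Of 8 B lineage genes, 0 and 3 were higher (the latter 0 without AAV-miR SOD1 replicate 4 or non-injected replicate 3 or 6), with Cd79b, a chain of the B cell receptor, at 72.8 to 187 CPM and 20.8 to 119 CPM. The cord was frozen within its vertebrae, and of 5 bone genes 0 were called in either comparison (3 against non-injected within the libraries numbered 1 to 4 alone), and Col1a2 ran from 3342 to 7286 CPM in AAV-miR SOD1 and from 1629 to 12218 CPM in the controls.

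The members varied together to different degrees over the 13 libraries. Given as a description over libraries that share groups and differ in depth, Pearson's r of log2 CPM was 0.78 for Cd300lb with Cd300lf, 0.77 for Cd300a with Cd300ld and 0.71 for Cd300ld with Cd300lf. With the group means removed, these were 0.73, 0.46 and 0.78. Cd300lg had r of -0.01 with Cd300lb, 0.40 with Cd300a and 0.51 with Cd300ld. Ranked among the other 17402 tested genes by likeness, the second member of the 10 pairs stood at places from 269 (Cd300lf for Cd300lb) to 8736 (Cd300lg for Cd300lb).

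The 5 genes most like Cd300ld by Pearson's r of log2 CPM over the 13 libraries were Timeless, a replication fork protein (0.90), Dkc1, the pseudouridine synthase dyskerin (0.90), Tfdp2, an E2F partner (0.90), Pilrb2, a paired immunoglobulin-like receptor (0.89), and G2e3, a ubiquitin ligase (0.89). With group means removed their r was between 0.66 for Tfdp2 and 0.76 for Pilrb2. For Cd300a the nearest genes were Cyba, a subunit of the phagocyte NADPH oxidase (0.97), and Nusap1, a spindle protein (0.97). For Cd300lb they were Inpp5b (0.96) and Rassf5 (0.94), and for Cd300lf they were Sema4a (0.96) and Plaur, the urokinase receptor (0.92). Cd300lg was nearest to Rcbtb2 (0.91) and F11r, a junctional adhesion molecule (0.91). With group means removed, the nearest genes of these other 4 members had an r between 0.92 for Rassf5 and 0.96 for Cyba and Sema4a.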

How the data were processed

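The authors deposited raw read counts per gene for each of the 13 libraries, without normalization. The submitters' processing notes name cutadapt 1.8, STAR 2.5.2b, HTSeq 0.6.1 and the GRCm38 build, and the annotation and strand setting are not given in the sources used here. Per the labels' protocols, RNA was amplified by SMARTer and tagmented (Nextera XT), a chemistry that does not mark strand. Symbols came from GENCODE M21 (48349 of 48709 identifiers matched) and 5 summary rows were left out. Of 133 listed genes, 130 were found.

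In R 4.3.3, 17403 genes, with all 5 members among them, passed filterByExpr (a count of at least 10, a total of at least 15) of edgeR 4.0.16 and were fitted on all libraries with TMM scaling and the quasi-likelihood F test, adjusted by Benjamini-Hochberg, with 0.05 as the threshold. Log2 CPM used a prior count of 2. SE is the log2 fold change over the square root of F, and intervals have a level of 95%. The fit was tested on simulated data. Alternatives were RLE and upper quartile scaling, no filter, DESeq2 1.42.0, limma-voom (limma 3.58.1), groups compared alone, a replicate block, the header exchange, the libraries numbered 1 to 4, another prior count and leaving out each library.

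The members, gene lists and tests were chosen with earlier results of these data known. Named genes are the members, all Cd300 rows, all adaptors and phosphatases, the 2 most abundant genes of each other list (of which 1 or both are printed) and the genes nearest to each member by r.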

Additional observations from a re-analysis of the deposited data

Results flagged for a closer look

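The summed CPM of the 5 members was set apart in 2 libraries. In AAV-miR ctrl replicate 1 the sum was 107.55 CPM, far from the other libraries of its group, of which the nearest had 61.2 CPM. In non-injected replicate 3 the sum was 41.5 CPM, far below the other libraries of its group, of which the nearest had 68.6 CPM. The test (Dixon's, at the 95% level) was applied to 27 sets of values, of which chance sets apart about 1 in 20, or 1.35. AAV-miR ctrl replicate 1 also had the highest neutrophil sum of the controls (70064 CPM), and non-injected replicate 3 is 1 of the 2 libraries whose header contradicts its label.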

How the results depend on the processing

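The log2 difference of Cd300ld kept its direction in every setting. It lay between 1.35 and 1.65 against AAV-miR ctrl, 1.34 and 1.66 against non-injected, and 1.37 and 1.64 against both control groups. These are the values that chose Cd300ld, so the kept direction is a description and no support. The number of other members past the threshold was 0 in every setting against AAV-miR ctrl and against non-injected. Against both control groups it was 1 with DESeq2 and 1 with limma-voom, Cd300a in each case, and it ranged from 0 to 1 when each library was left out in turn, the 1 being Cd300a without AAV-miR ctrl replicate 1. DESeq2 called 1521 genes and limma-voom 1461 in that comparison. There edgeR called 0 with all libraries and 1694 without AAV-miR ctrl replicate 1. Fitting the groups compared alone was not run for both control groups, where it would be the same fit.

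Differences between AAV-miR ctrl and non-injected were near 0 and turned in direction. Cd300a was at -0.092 with limma-voom, -0.17 with the replicate block, -0.10 with the header exchange and, with single libraries left out, from -0.25 (without AAV-miR ctrl replicate 1) to 0.27. Cd300lb was at -0.36 with limma-voom, -0.022 with the header exchange, and with single libraries left out from -0.14 (without AAV-miR ctrl replicate 1) through -0.021 (without non-injected replicate 2) to 0.49. Cd300ld was at -0.17 with limma-voom, -0.10 with the replicate block, and with single libraries left out from -0.18 (AAV-miR ctrl replicate 1) through -0.11 and -0.024 (non-injected replicates 3 and 5) to 0.19. Cd300lf was at -0.33 with limma-voom, -0.10 with the replicate block, -0.063 with the header exchange, and with single libraries left out from -0.21 (AAV-miR ctrl replicate 1) through -0.099 (non-injected replicate 3) to 0.45. Cd300lg was at 0.049 within the libraries numbered 1 to 4 and 0.18 without non-injected replicate 2, the highest with a library left out, where the lowest was -0.33. The cause was not tested.

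No clear pairing by replicate number was seen. Deviations of the 8 pairs with the same number correlated at -0.19 to 0.24 (median 0.02), and those of 48 other pairs at -0.39 to 0.34. With only 8 such pairs, these values cannot settle whether the numbers mark paired libraries. With the replicate block, 0 members other than Cd300ld passed in any comparison, with a smallest adjusted p of 0.443. The recount of gene lists under each setting was added after the data had been seen. Within the libraries numbered 1 to 4, which remove the 4 deepest controls, 0 of 14 neutrophil and 0 of 12 monocyte and macrophage genes had an unadjusted p under 0.05 against AAV-miR ctrl, and 13 and 8 did without AAV-miR ctrl replicate 1. Of all genes, 2.45% and 11.6% were higher at that p in these settings.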
